A study of Mus musculus with 9 samples.

Results

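Cytosolic ribosomal protein genes were followed in RNA-seq counts from 9 whole NB9464 tumors. Members were the gene symbols that begin with Rpl or Rps and go on with a number, with or without the ending a, x, l or l1, together with Rpsa, Rplp0, Rplp1 and Rplp2. Symbols that carry the pseudogene mark -ps were left out, and a mean count of at least 10 over the 9 libraries was required. The name rule matched 86 of 54429 symbols and the count minimum left 80, of which 32 encode proteins of the small subunit and 48 proteins of the large subunit. All 80 passed the low-count filter of the test. The 6 symbols left out were Rpl3l (mean count 4.0), Rpl39l (1.22), Rpl6l (1.0), Rpl32l (0.444), Rpl10l (0) and Rps12l1 (0). Just inside the limit lay Rps4l, annotated as a transcribed processed pseudogene, with a mean count of 11, and the other 79 members are annotated as protein coding.

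NB9464 is a mouse neuroblastoma line from a MYCN-driven tumor. Tumors had been grown under the skin of wild-type C57BL/6 mice from implanted cells, and treatment started at a volume of 250 mm3. Mice were 4 to 6 weeks old by the study's methods. Vehicle tumors (n = 3) received neither drug nor radiation. R788 + anti-PDL1 tumors (n = 3) received R788, or fostamatinib, an oral prodrug of a Syk kinase inhibitor, at 50 mg/kg 5 times a week, and an antibody that blocks the checkpoint ligand PDL1 4 times a week. Rad + R788 + anti-PDL1 tumors (n = 3) received both drugs and 10 Gy of radiation, and are called irradiated replicates 1 to 3 here. For all groups 4 doses from day 28 to day 37 are also listed, and how these relate to the weekly rates was not resolved. The labels describe whole tumor tissue in one field and RNA from bone marrow-derived macrophages in another. They number the tumors without stating that each came from a separate mouse, so p-values measure the spread between these samples. In bulk tumor RNA, fewer cells of a type and less RNA per cell cannot be told apart.

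The cytosolic ribosome reads mRNA into protein. Its small subunit holds the mRNA and decodes it, and its large subunit joins the amino acids. Ribosomal proteins are made from short, very abundant mRNAs, many of which begin with a run of pyrimidines that lets mTOR signaling adjust their translation together, and MYC family proteins are known to raise ribosome production. Each protein gene has many processed copies elsewhere in the genome, so reads of one mRNA can match several places.

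Such matches bear on how counts of several members can be read, and the sequences shared with such copies are shown first. A copy was a symbol outside the member list whose transcript matched at least 80% of a member's coding region at 95% identity or more, with the match covering at least 30% of the copy's own transcript. In the GENCODE M21 transcripts, 544 such copies of 74 members were found, of which 23 copies of 21 members had a mean count of 10 or more. The first 60 coding bases of 3 members whose whole coding region recurs without a mismatch in a counted copy are given 5′ to 3′, all in lower case because no base differs.
Rpl10, identical over 642 coding bases to Rpl10-ps3: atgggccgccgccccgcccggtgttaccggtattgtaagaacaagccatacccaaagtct
Rps12, identical over 396 coding bases to Rps12-ps3: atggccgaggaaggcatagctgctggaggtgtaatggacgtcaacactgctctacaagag
Rps27, identical over 252 coding bases to Rps27rt: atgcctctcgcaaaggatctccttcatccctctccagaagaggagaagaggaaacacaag
The paralog Rps27l, a member itself, is shown for contrast with the bases that differ from Rps27 in capitals: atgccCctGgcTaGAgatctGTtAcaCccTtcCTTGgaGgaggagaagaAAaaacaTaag
Rps27 and Rps27l differed at 60 of 252 coding positions, 18 of them in the stretch shown, and their longest identical run was 11 bases. Reads from Rps27 and Rps27l could therefore be told apart by sequence, whereas reads from the coding part of Rps27 and Rps27rt could not.

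Total counts ranged from 18276683 to 23397886 per library, so that 3 counts, the limit a count of 0 allows, corresponded to 0.115 to 0.221 CPM. CPM values, which put counts on a common library size, were scaled by TMM factors throughout. Irradiated replicate 1 stood apart from the other 8 libraries. It had counts for 18263 genes against 19732 to 22129, a TMM factor of 0.743 against 0.975 to 1.12, and 1.97% of counts in mitochondrial genes against 3.48% to 5.71%. Across genes, which are not independent replicates, its log2 CPM values had a Pearson r of 0.865 to 0.907 with each of the others. Results are therefore given with and without this library. Among the 13 neuroblast markers checked, Th and Elavl4 had a count of 0 in all 9 libraries, and the list's sum of 506.5 to 982.3 CPM came mostly from Hand2 and Mycn.

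Ribosomal protein genes took a large share of every library, and the share was smaller in most treated tumors than in vehicle tumors. They held 8.49% (95% Wilson interval 8.47 to 8.50), 7.07% (7.06 to 7.08) and 7.64% (7.63 to 7.65) of all counts in vehicle replicates 1 to 3. In R788 + anti-PDL1 tumors the shares were 6.97% (6.96 to 6.98), 5.88% (5.87 to 5.89) and 6.84% (6.83 to 6.85). Irradiated replicates 2 and 3 had 6.87% (6.86 to 6.88) and 6.92% (6.91 to 6.93). Irradiated replicate 1 had 17.67% (17.65 to 17.68), with 3228737 counts in these genes. The 3 R788 + anti-PDL1 tumors and irradiated replicates 2 and 3 thus lay below all 3 vehicle tumors, and irradiated replicate 1 lay above every other library. These intervals cover counting error within a library only and not the spread between tumors. They treat every read as independent, which could not be checked, since reads here carry no molecular identifiers. Group means were 7.73% ± 0.715 (SD, n = 3) for vehicle, 6.57% ± 0.595 (SD, n = 3) for R788 + anti-PDL1 and 10.5% ± 6.22 (SD, n = 3) for Rad + R788 + anti-PDL1. Both subunits showed the same order. The small subunit took 2.68% to 3.21% in vehicle, 2.29% to 2.67% in R788 + anti-PDL1, and 7.13%, 2.59% and 2.62% in the irradiated replicates.

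**Figure D1:**
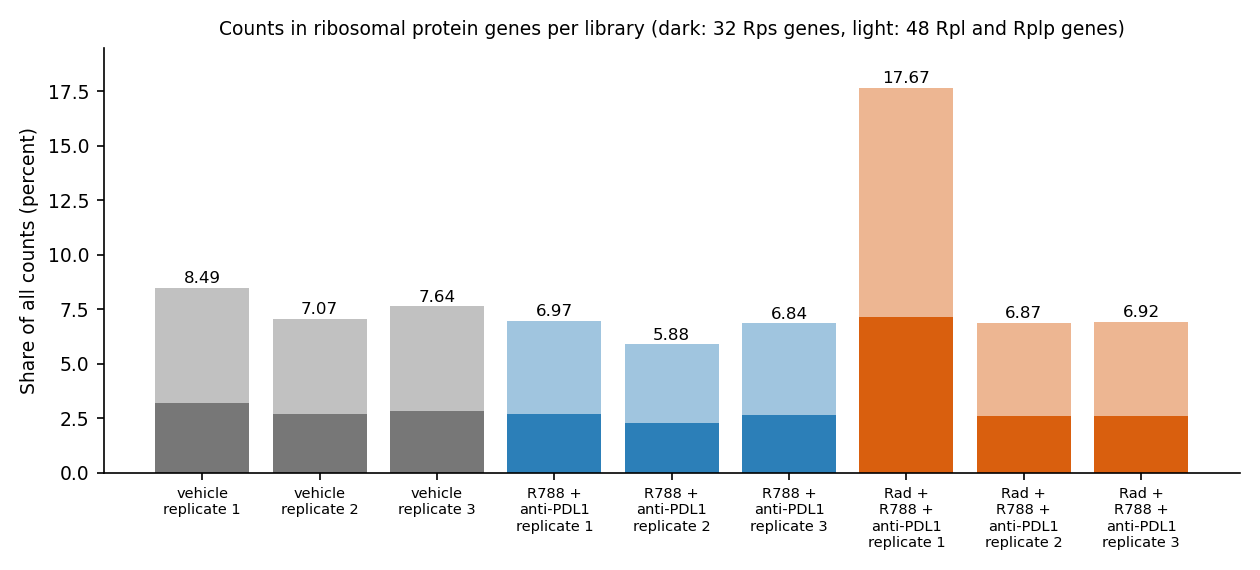
Share of all counts, in percent, taken by ribosomal protein genes in each of the 9 libraries, split into 32 small subunit genes (dark) and 48 large subunit genes (light), with 1 bar per tumor and no error bars. Irradiated replicate 1 reached 17.67%, whereas the other 8 libraries lay between 5.88% and 8.49%.

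Levels between genes were compared as CPM per kilobase of transcript in vehicle tumors. The median member had 1307 CPM per kb, 53 members had at least 1000 and 10 had less than 200. Rpl38, a large subunit protein, was highest with 4449 ± 387 CPM per kb (SD, n = 3), followed by Rpl17 (3297 ± 704), Rps2 (3187 ± 52.7), Rpl23a (3025 ± 317) and the stalk protein gene Rplp1 (2958 ± 426). From Rpl17 to Rplp1 neighbours in this order differed by less than the larger of their SDs. At the low end were Rps4l (0.281 ± 0.0708), Rpl22l1 (51.4 ± 5.22), Rps27 (61.8 ± 73.9), Rpl5 (86.3 ± 10.8), Rpl12 (95.5 ± 2.44), Rpl27 (128 ± 18.4) and Rps12 (143 ± 63.6). Of these 7 genes, 5 (Rps27, Rpl5, Rpl12, Rpl27 and Rps12) share their coding sequence with a copy that received more counts than the gene, so the low levels describe the symbols and not the mRNAs. Rps20 is listed with a 3706-base transcript, the longest of all members, which lowers its level per kilobase.

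R788 + anti-PDL1 tumors were compared with vehicle tumors to ask what the drug pair changed in established tumors. Most ribosomal protein genes had lower estimates after treatment, by a small amount, and no member passed the test. Estimates were negative for 77 of 80 members, where 51.6% of all genes tested had a negative one. The median log2 fold change was -0.32 against -0.02 over all 15931 genes tested. The edgeR quasi-likelihood test with Benjamini-Hochberg adjustment called 0 members, while it called 0.678% of all genes tested in either direction. A raw p under 0.05 with a lower level was obtained for 1 member, Rpl17, against a background of 5.69%. DESeq2 called 1 member lower (Rpl17), with a background of 2.06%. By limma-voom 0 members were called, against 0.395% of all genes tested higher and 0.301% lower. The 3 treated tumors lay below the 3 vehicle tumors for 45 of 80 members, or 20 small and 25 large subunit genes, where 16.5% of all genes tested did so. The share of all genes tested that were lowest in R788 + anti-PDL1 replicate 2 was not computed, so the next count is only a description. R788 + anti-PDL1 replicate 2 was the lowest of the 9 libraries for 63 of 79 members (all but Rps4l, whose counts are too few for ratios), with a median 0.58 below vehicle on the log2 scale. The other R788 + anti-PDL1 replicates had medians of -0.19 and -0.26. Without it the median log2 fold change was -0.22, and without vehicle replicate 1 it was -0.20.

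Rpl17, a protein that lines the peptide exit tunnel of the large subunit, showed the lowest estimate. Its levels were 1932, 2948 and 2785 CPM in vehicle and 584.9, 1067 and 772.3 CPM in R788 + anti-PDL1 tumors. The irradiated replicates had 3180, 1379 and 1309 CPM. The R788 + anti-PDL1 tumors lay below all other libraries. The log2 fold change against vehicle was -1.66 ± 0.40 (SE), with an adjusted p = 0.110 by edgeR.

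Rps27, a zinc-binding small subunit protein, had the second lowest estimate but the widest spread. It had 50.7, 4.85 and 8.44 CPM in vehicle, 20.02, 5.27 and 3.77 CPM in R788 + anti-PDL1, and 90.7, 53.2 and 65.8 CPM in irradiated tumors. The vehicle and R788 + anti-PDL1 groups overlapped, at -1.14 ± 0.87 (adjusted p = 0.702, edgeR). Rps14, a protein of the small subunit platform, had 1906, 1275 and 1312 CPM in vehicle and 615.7, 1243 and 875.1 CPM in R788 + anti-PDL1, a change of -0.72 ± 0.61 without overlap. Rpl35a, of the large subunit, had 849.2, 632.3 and 723.0 CPM against 467.1, 448.1 and 469.4 CPM, also without overlap, at -0.67 ± 0.47. Rpl36a was the fifth lowest at -0.66. At the other end, 3 members had positive estimates. Rps4l was at 1.36 ± 0.90, with 0.164 to 0.276 CPM in vehicle and 0.176 to 1.22 CPM in treated tumors. These are 3 to 5 counts per vehicle library, at the floor, so that its estimates depend on the prior count of the fit. Rps23 was at 0.21 ± 0.51, and Rpl7l1 at 0.03 ± 0.20.

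Without irradiated replicate 1, which belongs to neither group but enters the shared estimate of spread, the same comparison called 4 members lower, against 2.78% of all genes tested. These were Rpl17 (-1.63 ± 0.23, adjusted p = 0.0100, edgeR), Rpl24 (-0.56 ± 0.10, adjusted p = 0.0221), Rpl35a (-0.65 ± 0.13, adjusted p = 0.0248) and Rpl7 (-0.49 ± 0.10, adjusted p = 0.0316). Rpl24 sits at the bridge between the subunits and had 722.0, 614.9 and 656.4 CPM in vehicle against 445.4, 429.0 and 458.4 CPM in R788 + anti-PDL1. Rpl7, also of the large subunit, had 2065, 1857 and 1955 CPM against 1452, 1317 and 1364 CPM. Neither gene overlapped between the groups. A raw p under 0.05 with a lower level was found for 28 of 80 members, against 12.0% of all genes tested. The median was -0.30 in this fit, close to the value with all libraries. Rps4x, an X-linked small subunit protein, stood at the limit with -0.63 ± 0.15 (adjusted p = 0.05, not passing).

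**Figure D2:**
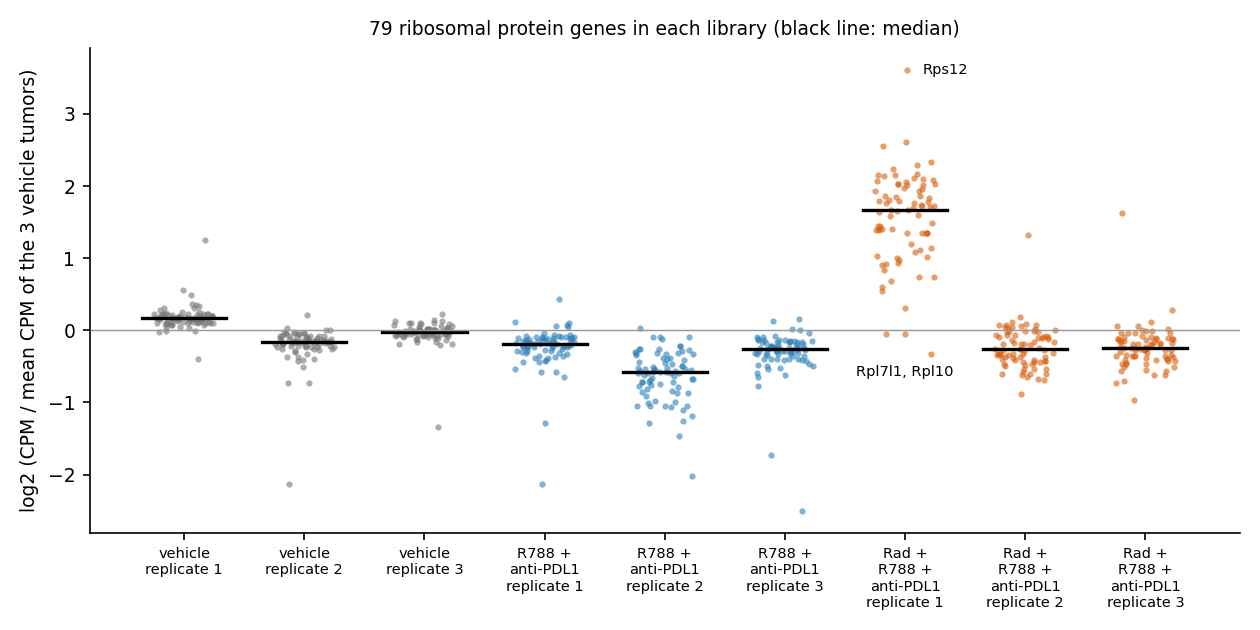
Log2 ratio of CPM to the mean of the 3 vehicle tumors for 79 members (all but Rps4l), with 1 point per gene, 1 column per library and a black line at the median. The column of irradiated replicate 1 lies at a median of 1.66, while its other treated neighbours lie between -0.58 and -0.19.

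Rad + R788 + anti-PDL1 tumors were compared with vehicle tumors to ask what the full combination changed. The estimates of ribosomal protein genes were mostly positive, and they came from 1 tumor. With all libraries, 74 of 80 members had positive estimates, with a median of 0.71 against 0.05 over all genes tested. Negative estimates made up 7.5% of the members and 47.1% of all genes tested. Again edgeR called 0 members, while it called 0.0439% of all genes tested. A raw p under 0.05 with a higher level was found for 2 members, Rpl22l1 and Rps12, against a background of 7.71%. DESeq2 and limma-voom called 0 members. The groups did not overlap, with irradiated tumors higher, for 1 member (Rps27), while 9.27% of all genes tested did so. In irradiated replicate 1, 76 of 79 members had their highest level of all 9 libraries, a share that was not computed over all genes tested. At least 2 times the mean of irradiated replicates 2 and 3 was reached by 73 members, where 17.3% of all genes tested did. The median ratio was 3.62. It was 4.10 for the small subunit and 3.55 for the large subunit.

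Without irradiated replicate 1 the direction turned. The median became -0.20, with 12 of 80 members positive. In this fit edgeR called 0 members, against 0.319% of all genes tested higher and 0.0241% lower. Negative estimates then made up 85.0% of the members and 47.9% of all genes tested. A raw p under 0.05 with a lower level was found for 17 members, against 6.91% of all genes tested. Both remaining irradiated tumors lay below all 3 vehicle tumors for 42 members, against 19.6% of all genes tested. With irradiated replicate 2 or 3 left out instead, both medians were 1.02. A fit by limma-voom that weights libraries by their quality gave a median of -0.125.

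The extremes show how single members followed this tumor. Rps12, a small subunit protein, had 104.7, 42.7 and 65.0 CPM in vehicle, 53.2, 40.3 and 68.8 CPM in R788 + anti-PDL1 and 865.4, 52.01 and 55.5 CPM in the irradiated replicates. Only irradiated replicate 1 departed from the range of the others. The estimate of 2.20 ± 0.97 (adjusted p = 0.376, edgeR) became -0.37 ± 0.35 without it. Rplp2, an acidic protein of the large subunit stalk that recruits elongation factors, had 911.0, 723.6 and 826.4 CPM in vehicle and 5015, 684.7 and 638.7 CPM in irradiated tumors. Its estimate went from 1.36 ± 0.69 to -0.28 ± 0.13 without irradiated replicate 1. Rps20 had 735.3, 595.6 and 743.9 CPM in vehicle against 4062, 716.6 and 634.5 CPM, at 1.38. Rpl22l1, a paralog of Rpl22, had 30.8, 25.2 and 29.3 CPM in vehicle against 114.5, 29.1 and 34.4 CPM in irradiated tumors, and its estimate was 1.06 ± 0.47 (adjusted p = 0.373). It overlaps Gm33051 on the other strand, and strandedness was not given in the sources used here.

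A few members did not follow irradiated replicate 1. Rpl10 and Rpl7l1 were among those that stood under 1.5 times the mean of its 2 group mates. Rpl10, which helps the large subunit mature, had 180.9 CPM there against 211.3 and 246.4 CPM. Rpl7l1, a paralog of Rpl7, had 192.2 CPM against 200.8 and 144.3 CPM. Both lay within the range of the vehicle tumors or below it. Rpl7l1, at -0.16 ± 0.20, was among the 5 lowest estimates, as were Rpl17 (-0.39 ± 0.39), Rpl27 (-0.14) and Rpl10 (-0.09 ± 0.24).

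**Figure D3:**
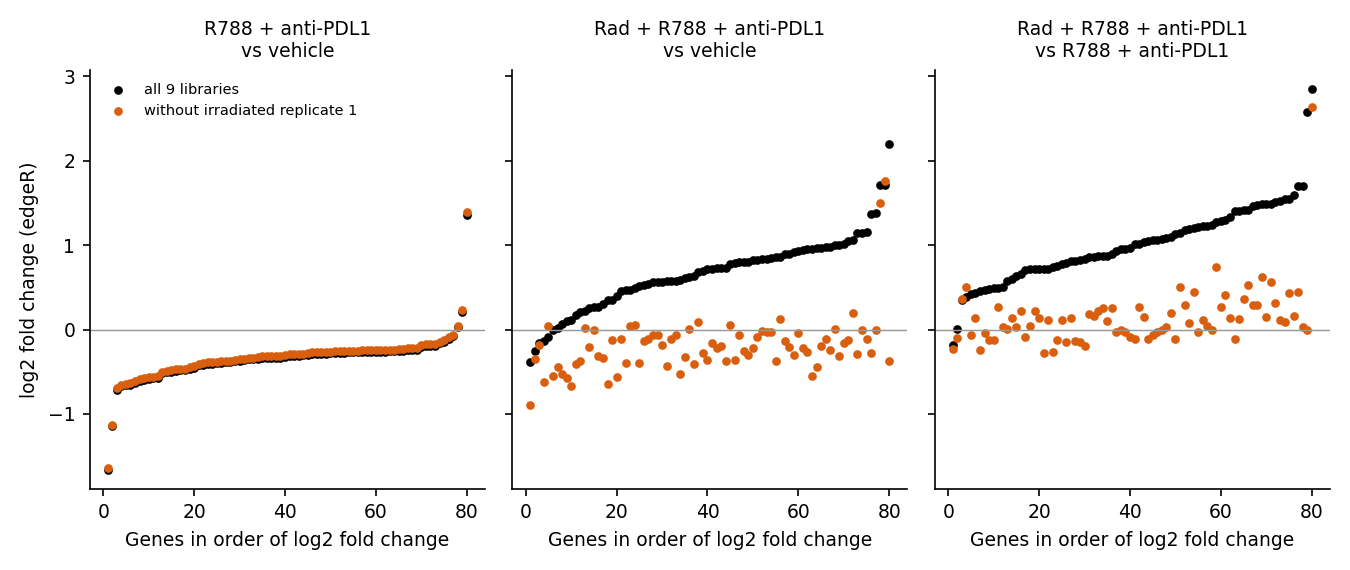
Log2 fold changes of the 80 members from edgeR in the 3 comparisons, ordered within each panel by the value from all 9 libraries (black), with the value without irradiated replicate 1 in orange. The black and orange points coincide for R788 + anti-PDL1 against vehicle, whereas in both comparisons of irradiated tumors the orange medians are -0.20 and 0.11 in place of 0.71 and 0.99.

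Rad + R788 + anti-PDL1 tumors were compared with R788 + anti-PDL1 tumors to ask what radiation added. This comparison shares its irradiated tumors with the previous one. Estimates were positive for 79 of 80 members, with a median of 0.99 against 0.04 over all genes tested. Negative estimates made up 1.25% of the members and 47.5% of all genes tested. Here too edgeR called 0 members, while it called 0.00628% of all genes tested. A raw p under 0.05 with a higher level was obtained for 27 members, against 11.7% of all genes tested. DESeq2 called 4 members higher (Rpl17, Rpl35a, Rps27 and Rps4x), against 3.38% of all genes tested. By limma-voom 0 members were called, against 0.0377% of all genes higher and 0.0126% lower. Irradiated tumors lay above R788 + anti-PDL1 tumors without overlap for 17 of 80 members, against 14.2% of all genes tested. Among them were Rpl17, Rpl24, Rpl35a, Rps4x, Rpl5, Rpl11 and Rpsa. Without irradiated replicate 1 the median was 0.11 against 0.03 over all genes tested. In that fit 53 members were positive and 27 negative, where 47.4% of all genes tested were negative. With all libraries and quality weights the median of the members was 0.07.

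Rps27 had the highest estimate at 2.85 ± 0.91 (adjusted p = 0.222, edgeR), and its estimate was 2.63 ± 0.97 (adjusted p = 0.246) without irradiated replicate 1. The sum of Rps27 and its copy Rps27rt, given further on, did not share this difference. Rps12 followed at 2.58 ± 0.99, and its estimate was 0.00 ± 0.35 without irradiated replicate 1. Rplp2 (1.70 ± 0.70), Rps14 (1.70 ± 0.62) and Rpl37a (1.6) were next. Rpl17 was at 1.28 ± 0.40 (adjusted p = 0.222) and at 0.74 ± 0.25 (adjusted p = 0.222) without irradiated replicate 1. Rpl7l1 (-0.18 ± 0.20), Rps4l (0.35 ± 0.84) and Rpl10 (0.39 ± 0.24) were among the 5 lowest estimates.

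Ribosomal protein mRNAs are short, so the dependence of these differences on transcript length was examined over all genes. Lengths of the 80 members ran from 271 to 3706 bases with a median of 705, against a median of 2624 over 15852 genes tested that had a length. Genes were split into 10 bins of equal size, and 59 members fell into the shortest bin, which covers 123 to 939 bases. Irradiated replicate 1 differed from the mean of irradiated replicates 2 and 3 by a median of 1.01 on the log2 CPM scale in the shortest bin and by -0.98 in the longest. Every step between neighbouring bins was downward. Within the shortest bin, the members had a median difference of 1.91 and so lay above the upper quartile of that bin, 1.76. In the second bin, 15 members had a median of 1.81 against 0.77 for all its genes. Spearman's rho between length and this difference was -0.43 across 15852 genes and -0.28 across the 80 members, which share the same libraries and are given as a description.

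The estimates for R788 + anti-PDL1 tumors also went with length. Median log2 fold changes against vehicle rose from -0.18 in the shortest bin to 0.17 in the longest, and the members in the shortest bin had a median of -0.33. When a smooth trend on transcript length in each library was taken into the fit as an offset, the median of the members was -0.19 for R788 + anti-PDL1 against vehicle, 0.20 for irradiated against vehicle and 0.35 for irradiated against R788 + anti-PDL1 tumors. With this offset 1 member, Rpl17, was called lower in the first comparison (-1.52, adjusted p = 0.0469, edgeR), against 0.552% of all genes tested. In the others 0 members were called, where 54 and 1 of all 15931 genes tested were.

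**Figure D4:**
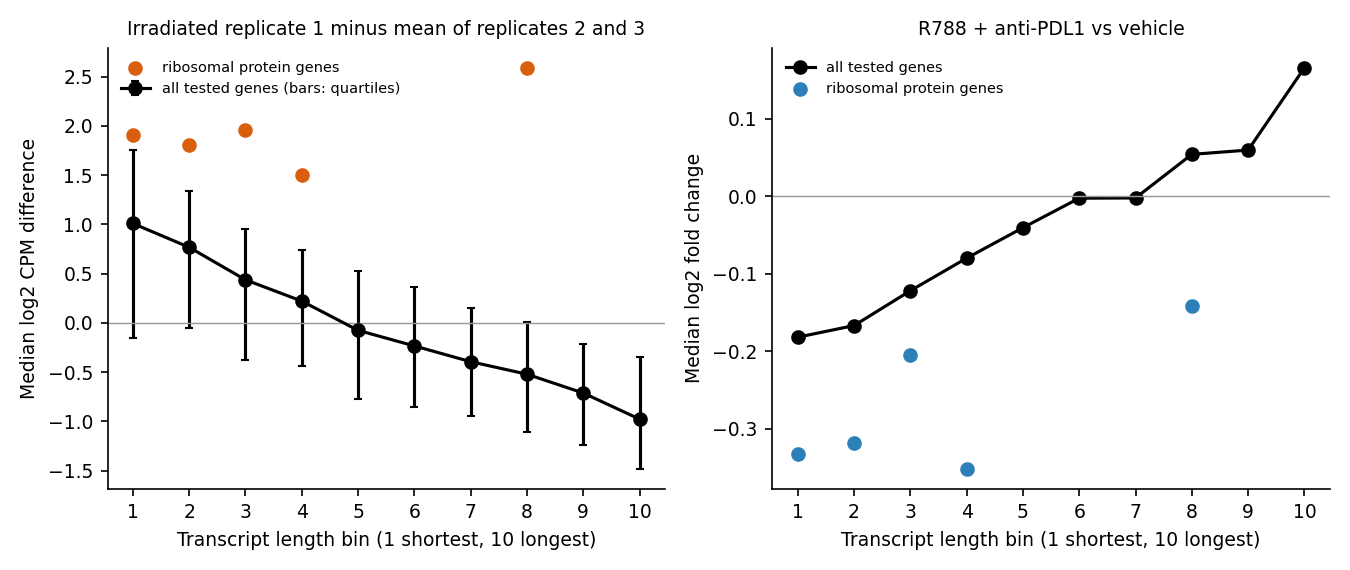
Median difference by transcript length bin (1 is 123 to 939 bases, 10 is 5850 bases and more) for all tested genes (black, bars in the left panel show quartiles) and for ribosomal protein genes (coloured). The left panel gives irradiated replicate 1 minus the mean of replicates 2 and 3 in log2 CPM, which runs from 1.01 to -0.98, and the right panel gives the log2 fold change of R788 + anti-PDL1 against vehicle, which runs from -0.18 to 0.17.

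Copies took more counts than the gene itself for 7 members. Mean counts over the 9 libraries were 2738 for Rpl12 and 25018 for its copy Gm10275, 4021 for Rpl5 and 23979 for Gm15500, and 4118 for Rpl10 and 20954 for Rpl10-ps3. They were 2439 for Rps12 and 14421 for Rps12-ps3, 620 for Rps27 and 10781 for Rps27rt, 1331 for Rpl27 and 10296 for its copy, and 8818 for Rpl27a and 11711 for Gm7536. In each of these pairs the leading copy matched the coding region at 100% identity. The division between gene and copy was not the same in every library. Rps12 held 5.84% to 11.9% of the summed counts of gene and copy in 8 libraries and 33.1% in irradiated replicate 1. Rpl10 held 14.2% to 20.3% in 8 libraries and 7.11% in irradiated replicate 1. Rps27 held 0.629% to 8.44% in vehicle and R788 + anti-PDL1 tumors and 7.07%, 13.3% and 15.8% in irradiated tumors. Members named above for extreme estimates were thus among those with an uneven division.

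With gene and copies summed, the values of these members were closer to those of the other members. Rps12 with its copy had 883.0, 731.0 and 687.1 CPM in vehicle and 2614, 523.7 and 521.6 CPM in irradiated tumors, and its estimate against vehicle was 0.67 ± 0.56 in place of 2.20. Rpl10 with its copy had 2546 CPM in irradiated replicate 1 against 1198 and 1214 CPM in its group mates, or 2.11 times, where the gene alone was at 0.791 times. Its estimate against vehicle was 0.37 ± 0.31 in place of -0.09. Rps27 with Rps27rt had 600.6, 541.8 and 468.9 CPM in vehicle, 510.2, 400.0 and 599.6 CPM in R788 + anti-PDL1, and 1284, 400.4 and 417.8 CPM in irradiated tumors. Its estimate of 2.85 between irradiated and R788 + anti-PDL1 tumors became 0.48 ± 0.43. Over all 80 members, adding the copies gave medians of -0.30, 0.65 and 0.89 in the 3 comparisons and 0 calls in each. Over all 15903 genes tested then, 109, 7 and 1 were called. Rpl7l1 has no copy with a mean count of 10 or more, so its place apart from the others was the same after this step. Rpl17 had none either.

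**Figure D5:**
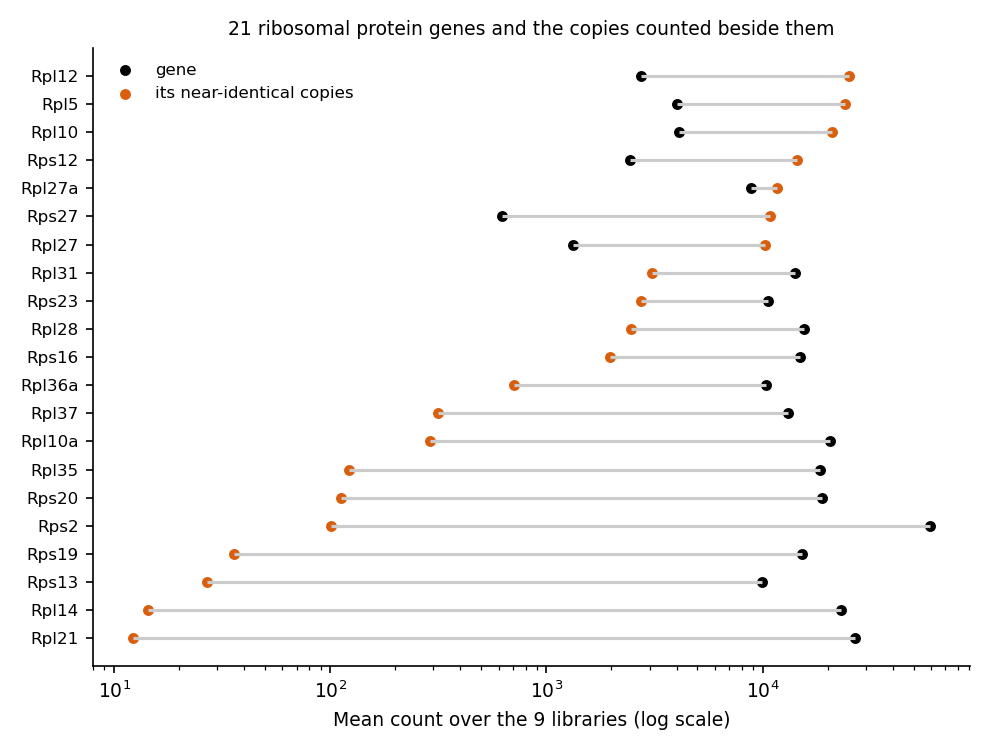
Mean count over the 9 libraries, on a log scale, of 21 members (black) and of the summed near-identical copies counted under other symbols (orange), with no error bars. For the top 7 genes, from Rpl12 to Rpl27, the copies held more counts than the gene.

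Members with known roles outside the ribosome had values within the range of the rest. Rpl5, Rpl11, Rpl23 and Rpl26 are known to bind Mdm2, the ligase that degrades p53, when ribosome assembly is disturbed. Rpl11 had 1216, 941.4 and 1025 CPM in vehicle, 894.8, 724.3 and 831.0 CPM in R788 + anti-PDL1, and 3358, 944.2 and 921.4 CPM in irradiated tumors. The R788 + anti-PDL1 tumors lay below vehicle without overlap. The 4 genes had log2 fold changes of -0.34, -0.38, -0.57 and -0.26 in R788 + anti-PDL1 against vehicle, with adjusted p-values by edgeR of 0.644 or more. Without irradiated replicate 1 the changes of irradiated tumors against vehicle were 0.13, -0.16, -0.55 and -0.36. Rpl5 overlaps Fam69a on the other strand, and it held only 11.5% to 17.7% of the summed counts of gene and copy. Rpl5 with its copy Gm15500 had 1346, 1257 and 1315 CPM in vehicle and 3292, 1328 and 1170 CPM in irradiated tumors.

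Rps6, the substrate of the S6 kinases downstream of mTOR, had 1727, 1547 and 1546 CPM in vehicle and 1493, 1279 and 1434 CPM in R788 + anti-PDL1, and 4197, 1580 and 1431 CPM in irradiated tumors. The difference between R788 + anti-PDL1 and vehicle was -0.20 ± 0.39 (adjusted p = 0.894, edgeR). Rps19, mutated in Diamond-Blackfan anemia, changed by -0.28 ± 0.55. Rpsa, also known as the laminin receptor, had 2540, 2091 and 2525 CPM in vehicle, 2075, 1983 and 1803 CPM in R788 + anti-PDL1, and 9624, 2572 and 2121 CPM in irradiated tumors. The stalk genes Rplp0 (-0.37 ± 0.35) and Rplp1 (-0.46 ± 0.57) were lower than vehicle in all R788 + anti-PDL1 tumors. Rps27a, which encodes ubiquitin fused to a ribosomal protein and overlaps Clhc1 on the other strand, changed by -0.50 ± 0.55, and without irradiated replicate 1 by -0.48 ± 0.13 (adjusted p = 0.0621).

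The tissue-restricted paralogs were near the detection limit. Rpl3l, known from heart and skeletal muscle, had 0 to 10 counts per library, where Rpl3 had 27074 to 39716. Rpl39l and Rpl10l, known from testis, had at most 4 counts and 0 counts, and a count of 0 allows up to 3. Rps4l stayed under 1.28 CPM where Rps4x had 907.3 to 6129 CPM. Rpl22 had 808.3, 683.2 and 667.8 CPM in vehicle and 2942, 637.3 and 664.2 CPM in irradiated tumors. Its estimate was 0.97 ± 0.54 where that of Rpl22l1 was 1.06, and without irradiated replicate 1 they were -0.12 ± 0.16 and 0.19 ± 0.20. The difference between the paralogs was not tested. Rps27l, a p53 target, had 102.6, 77.1 and 88.8 CPM in vehicle and 196.9, 88.5 and 93.2 CPM in irradiated tumors, with an estimate of 0.49 ± 0.31 and of 0.05 ± 0.16 without irradiated replicate 1.

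Sequence at the start sites of members is shown because many ribosomal protein mRNAs are known to begin with a pyrimidine tract. RefSeq start windows on GRCm38.p6 were matched by symbol for 59 of 80 members. The windows span 30 bases before the first transcribed base and 15 from it on, 5′ to 3′, and capitals mark the pyrimidine run that begins with C at the first base.
Rpl35, chr2:39005117-39005161, minus strand: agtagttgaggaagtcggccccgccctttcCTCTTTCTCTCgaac
Rps6, chr4:86857353-86857397, minus strand: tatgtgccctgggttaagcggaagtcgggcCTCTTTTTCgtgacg
Rplp2, chr7:141447621-141447665, plus strand: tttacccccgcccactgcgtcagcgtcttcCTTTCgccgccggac
Rps12, chr10:23787195-23787239, minus strand: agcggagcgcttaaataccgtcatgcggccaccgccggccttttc
Rpl10, chrX:74270786-74270830, plus strand: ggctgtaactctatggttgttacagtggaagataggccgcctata
Rpl7l1, chr17:46782642-46782686, minus strand: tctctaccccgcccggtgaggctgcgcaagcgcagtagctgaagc
The first 3 begin with such a run and the last 3 do not at the base that RefSeq gives as the start, which can differ from the start used in these tumors. A run of C and 4 pyrimidines at that base was found for 13 of 59 members (22.0%) and for 3.01% of 27025 genes. Members with it had a median ratio of 3.94 in irradiated replicate 1 to its group mates and those without it 3.60. Their median log2 fold changes in R788 + anti-PDL1 against vehicle were -0.34 and -0.31.

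Over whole 300-base windows (250 before to 50 from the start), both strands were searched. The MYC E-box CACGTG was in 6 of 59 member genes (10.2%) and in 8.09% of all genes. CCGGAA, the core bound by ETS factors, was in 33 (55.9%) against 16.7%. The letters CTTTCC were in 31 (52.5%) against 29.3%, and in some windows they lie within the pyrimidine run at the start. Members with and without the E-box had median ratios of 3.81 and 3.62 in irradiated replicate 1. The ratios were 3.15 and 3.86 with and without CCGGAA, and 3.55 and 3.86 with and without CTTTCC. These matches describe letters in the windows and not bound sites.

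Genes of related function were read from lists chosen by function. The 6 ribosomal proteins or ribosome-bound proteins outside the name rule (among them Rps3a1, Fau, Rack1, Rpl36al and Rps27rt) had 0 calls in each comparison by edgeR, DESeq2 or limma-voom. Over all 15931 genes tested, edgeR called 108, 7 and 1, DESeq2 770, 611 and 822, and limma-voom 111, 12 and 8. These proteins had 0, 0 and 1 raw p-values under 0.05, against 11.7%, 13.2% and 18.4% of all genes tested. Their medians were -0.24, 0.68 and 1.04. These medians became -0.23, -0.31 and -0.0036 without irradiated replicate 1. All 6 estimates for irradiated tumors against vehicle were then negative, where 47.9% of all genes tested were. Fau, made as a fusion with a ubiquitin-like protein, had 827.1, 744.6 and 726.9 CPM in vehicle, 611.7, 412.4 and 606.6 CPM in R788 + anti-PDL1, and 2463, 455.3 and 509.4 CPM in irradiated tumors, so that irradiated replicate 1 was again highest and the other treated tumors lay below vehicle. Mitochondrial ribosomal proteins, which are encoded in the nucleus and serve a separate ribosome, gave 0 of 77 calls in each comparison by edgeR, with 3, 3 and 26 raw p-values under 0.05, where 11.7%, 13.2% and 18.4% of all genes tested had one, and medians of -0.28, 0.35 and 0.65. DESeq2 called Mrpl40 lower in the first comparison, against 2.06% of all genes tested, and Mrpl3, Mrpl39 and Mrpl9 higher in the third, against 3.38%. Their 2 lowest and 2 highest estimates in R788 + anti-PDL1 against vehicle were Mrpl17 (-0.77), Mrpl15 (-0.77), Mrps34 (0.08) and Mrps7 (0.12). Without irradiated replicate 1, 6 of 77 were called lower in that comparison, against 2.78% of all genes tested, and the medians were -0.26, -0.24 and 0.10.

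The 46 ribosome biogenesis genes were evenly divided in R788 + anti-PDL1 tumors, with 25 positive and 21 negative estimates and a median of 0.02. They had 0 calls by edgeR and 0 raw p-values under 0.05, against 0.678% and 11.7% of all genes tested. Their extremes were Npm1 (-0.45) and Ncl (-0.44), which encode abundant nucleolar proteins, and Polr1b (0.30), a subunit of RNA polymerase I, and Nip7 (0.43). Against vehicle, irradiated tumors had a median of 0.08 over this list, from Nvl (-0.68) and Tsr1 (-0.60) to Polr1d (1.0) and Mrto4 (1.14). In the comparisons of irradiated tumors edgeR called 0 genes of this list, against 0.0439% and 0.00628% of all genes tested. Raw p-values under 0.05 numbered 6 and 8, where 13.2% and 18.4% of all genes tested had one. DESeq2 called Tsr1 lower in both and Ddx21 lower in the second, against 1.15% and 2.24% of all genes tested. Against R788 + anti-PDL1 the median was 0.15, from Ddx21 (-0.76) and Nle1 (-0.66) to Nhp2 (1.10) and Polr1d (1.38). Both medians were negative without irradiated replicate 1, at -0.05 and -0.07, and the highest estimates were 0.41 and 0.38. The 19 translation factors had 0 calls by edgeR, against 0.678%, 0.0439% and 0.00628% of all genes tested. DESeq2 also called 0, where it called 2.79%, 2.7% and 3.38% of all genes higher and 2.06%, 1.15% and 2.24% lower. Raw p-values under 0.05 numbered 0, 0 and 1, where 11.7%, 13.2% and 18.4% of all genes tested had one. Medians were -0.21, 0.23 and 0.36, and they were -0.19, -0.10 and 0.01 without irradiated replicate 1. Eef1b2, an exchange factor of elongation, was at -0.47, 0.94 and 1.42, while Eef2, the translocase, was the lowest factor in both irradiated comparisons at -0.53 and -0.44. Without irradiated replicate 1, 1 of these 19 genes, Eef1b2, was called lower in R788 + anti-PDL1 tumors, against the 2.78% of all genes tested given above.

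Mycn, counted here as the mouse gene, had 166.9, 183.4 and 128.3 CPM in vehicle and 193.7, 126.6 and 250.3 CPM in R788 + anti-PDL1. In irradiated tumors it had 93.3, 130.0 and 141.4 CPM. Irradiated replicate 1, with the largest ribosomal protein share, had the lowest Mycn value of the 9 libraries. A relation between Mycn and the ribosomal protein genes was not tested. Myc was much lower, from 0.959 CPM in irradiated replicate 1 to 8.08 CPM in irradiated replicate 3. Of 13 MYC and mTOR regulators none was called in any comparison by edgeR. Raw p-values under 0.05 numbered 2, 3 and 4, where 11.7%, 13.2% and 18.4% of all genes tested had one. DESeq2 called 1 in each (Mycl higher, Rps6kb1 lower and Eif4ebp1 higher), where 2.79%, 1.15% and 3.38% of all genes tested were called in that direction. The extremes of this list were Eif4ebp1 (-0.79), a repressor of cap-dependent translation, Myc (-0.44), Rps6kb2 (0.26) and Mycl (1.52) in R788 + anti-PDL1 against vehicle. They were Rps6kb1 (-0.93), Eif4ebp2 (-0.82), Mtor (0.56) and Mycl (0.81) in irradiated against vehicle, and Eif4ebp2 (-0.74), Rptor (-0.71), Mtor (0.42) and Eif4ebp1 (1.14) in irradiated against R788 + anti-PDL1 tumors. Among the p53 pathway genes Mdm2, Mdm4, Trp53 and Cdkn1a, edgeR called 0. Raw p-values under 0.05 numbered 1, 0 and 2, where 11.7%, 13.2% and 18.4% of all genes tested had one. DESeq2 called Cdkn1a lower in the first comparison and higher in the third, against 2.06% and 3.38% of all genes tested. In irradiated tumors against vehicle DESeq2 called none of these genes, where it called 2.7% of all genes higher and 1.15% lower. The highest estimate among them there was 0.06 by edgeR, and 0.16 without irradiated replicate 1. Cdkn1a, a cell cycle inhibitor induced by p53, had 19.4, 31.2 and 27.5 CPM in vehicle against 13.4, 13.0 and 10.8 CPM in R788 + anti-PDL1, at -1.07 (adjusted p = 0.0879, edgeR), and it was called lower without irradiated replicate 1 (adjusted p = 0.0259).

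Cell type markers differed between tumors as well, and their part in these results was not tested. Fibroblast markers summed to 3013 to 3742 CPM in vehicle, 2908 to 5367 CPM in R788 + anti-PDL1 and 2506 to 4924 CPM in irradiated tumors, with the highest value in R788 + anti-PDL1 replicate 2, which also had the lowest ribosomal protein share. Macrophage markers summed to 304.6 to 619.1, 637.6 to 674.0 and 325.1 to 1744 CPM. T cell markers summed to 1.70 to 3.98, 4.13 to 23.8 and 1.84 to 31.7 CPM, but in R788 + anti-PDL1 replicates 1 and 3 Cd4 alone gave 22.9 of 23.8 and 12.2 of 13.4 CPM. Cd3e was at 0.135 to 0.274 CPM in vehicle, 0.041 to 0.191 CPM in R788 + anti-PDL1 and 0.148 to 2.47 CPM in irradiated tumors. In irradiated replicate 1 the neuroblast list had its highest sum, 982.3 CPM, and the fibroblast list its lowest, 2506 CPM. Of the 5 keratinocyte markers, Krt5 alone was at 46.5 to 75.01 CPM in irradiated tumors, 1.90 to 63.1 CPM in R788 + anti-PDL1 and 3.05 to 7.51 CPM in vehicle. Krt14 was at 0.221 to 2.36 CPM in vehicle and 0 to 0.102 CPM in irradiated tumors, and Krt1, Krt10 and Dsp stayed at or under 2.06 CPM. Endothelial markers were at 34.5 to 44.8 CPM in vehicle and 43.2 to 111.5 CPM in R788 + anti-PDL1 tumors. Erythroid markers ran from 134.9 to 433.7 CPM in vehicle and from 39.99 to 69.9 CPM in R788 + anti-PDL1, and skeletal muscle markers from 81.0 to 133.6 and from 40.2 to 53.5 CPM, most of it Des, while Acta1 and Myh4 stayed under 1 CPM. B cell and neutrophil markers reached at most 17.7 CPM in all libraries.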

How the data were processed

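RNA-seq of 9 tumors was used, 3 per group, with groups taken from the labels. The authors aligned reads to mm10 with STAR 2.6.1d and estimated counts per gene with Salmon 1.4.0, versions per the submitters' processing notes. The deposited values are Salmon estimated counts, whole numbers and not normalized. The labels give 150-base paired reads from polyA-enriched RNA, the study's methods a single-read run. Strandedness was not given in the sources used here.

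Symbols were matched to GENCODE M21 (GRCm38) for coordinates, lengths and overlaps, with the shortest transcript of the best APPRIS rank as length. Genes passing filterByExpr (minimum count 10) were tested over all 9 libraries with edgeR 4.0.16 (R 4.3.3), TMM factors and the robust quasi-likelihood F test, with a Benjamini-Hochberg threshold of 0.05. Errors of log2 fold changes are the size of the change divided by the square root of F. CPM floors are 3 counts. Copies were found with BLAST 2.17.0. The fit was tested on simulated data. Alternatives used DESeq2 1.42.0, limma 3.58.1, other scalings and filters, a length offset, added copies, and each library left out.

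Members and gene lists were chosen with earlier results of these data known. Members were named if called, if among the 5 highest or 5 lowest estimates of a comparison, or as paralogs, Mdm2-binding proteins and other genes fixed by role. Some genes that the rule names are not reported here, but counts and medians include them. Rpl38, Rps2, Rpl23a, Rpl24 and Rpl7 were named after their values were seen. The 59 members with a RefSeq start window are those of the table given. Samples of the same replicate number were checked for shared deviations (correlations from -0.05 to 0.23), and the numbers were not used as pairs.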

Additional observations from a re-analysis of the deposited data

How the results depend on the processing

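In R788 + anti-PDL1 against vehicle the count of members called was 1 with DESeq2, with no low-count filter and with the length offset, where 2.06%, 0.29% and 0.552% of all genes tested were called lower. It was 3 with the 6 libraries compared alone (1.73% of all genes lower) and 14 by limma-voom with sample quality weights (17.1%). All these were lower, and the count was 0 to 4 when single libraries were left out. In Rad + R788 + anti-PDL1 against vehicle it was 5 with the quality weights (4 lower, 1 higher, against 5.86% and 6.65% of all genes), and against R788 + anti-PDL1 it was 4 with DESeq2 and 6 with the quality weights, all higher, against 3.38% and 11.5% of all genes. All genes called with these weights numbered 4835, 1993 and 3080 in the 3 comparisons, against 108, 7 and 1 in the main test. Medians of the members became -0.125 and 0.0712 in the irradiated comparisons with the weights, and ran from -0.204 to 1.02 and from 0.112 to 1.3 with single libraries left out, the low ends without irradiated replicate 1. In R788 + anti-PDL1 against vehicle the median stayed negative in all 23 alternatives, from -0.417 to -0.176. Scaling by library totals moved the median of all genes to 0.127, -0.0009 and -0.14, and relative to these the members kept their directions. The replicate block gave 0 members called in each comparison and medians of -0.321, 0.455 and 0.749. Same-numbered samples share only a number, and all genes called under the block were 0, 3 and 0.

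Single estimates that changed sign were close to 0 or followed 1 library. In R788 + anti-PDL1 against vehicle, Rpl12 was 0.0018 with upper-quartile factors, 0.0624 with library totals and 0.0565 with the length offset, and Rps27l was 0.0342 and 0.0106 with the last 2 of these. With single libraries left out, Rpl12 ran from -0.148 to 0.0226, Rps27l from -0.21 to 0.0235, Rpl7l1 from -0.0496 to 0.129 and Rps27 from -2.24 to 0.564, the last without vehicle replicate 1. In irradiated against vehicle, Rpl27 and Rpl10 were 0.00699 and 0.372 with pseudogene counts added, and 0.00746 and 0.372 with all copies added, an alternative chosen after seeing the data. Rplp2 was -0.212 and Rps12 -0.111 with the quality weights. With single libraries left out, Rpl27 ran from -0.626 to 0.0605, Rpl10 from -0.214 to 0.0428, Rplp2 from -0.282 to 1.79, Rps20 from -0.0063 to 1.78 and Rps12 from -0.371 to 2.69. In irradiated against R788 + anti-PDL1 tumors, Rps12 was -0.17 with the quality weights and Rps4l -0.0358 with the length offset. With single libraries left out, Rps4l ran from -0.334 to 1.53. The causes were not tested.

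Over the named members reported here and the alternatives, 575 estimates kept their sign and side of the threshold, 27 changed sign and 14 passed the threshold. Shares of counts moved little when only tested genes were included, as from 6.872% to 6.878% in irradiated replicate 2. With pseudogene counts irradiated replicates 2 and 3 rose from 6.872% and 6.921% to 7.115% and 7.159%, more than they differed from each other. With near-identical copies irradiated replicate 1 rose from 17.67% to 18.76%. Irradiated replicate 1 stayed above all vehicle tumors and the other treated tumors below them in each case. The precision is limited by 3 tumors per group and by 1 tumor that stands apart.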
